A study of Mus musculus with 21 samples.

Results

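Autophagy and lysosome genes were followed in islets of CBA mice as a set of 47 genes chosen by name and role, out of 55536 genes in the count files. They comprised 12 genes of initiation and phagophore growth, 12 of conjugation including the ATG8 proteins, 5 cargo receptors, 2 transcription factors, 9 lysosomal lumen proteins and 7 genes of the lysosomal membrane and proton pump. The rule holds no threshold on a measured value, although the names were picked with earlier results of these data known. Every symbol matched a single gene of the files, and all 47 passed the minimum of 10 reads over the samples that left 27229 genes to be tested. All mice were males of the CBA strain without a stated genetic modification, put on their diets at 10 weeks of age, with islets isolated at 20 weeks. The groups were mice on regular diet (RD), on high-fat diet (HFD), and on HFD containing 0.8 mg of O304 per g of diet (HFD-O304), where O304 is a small molecule that activates AMPK, a kinase that senses cellular energy. The time on the diets is given as 9 weeks in one place of the study's text and as 10 weeks in another. Each group had 7 samples, and each sample was RNA of 150 hand-picked islets from a pool of 5 mice, so that beta cells and the other cell types of the islet were measured together. Whether the 7 pools of a group held different mice is not stated in the sources used here, and p-values measure the spread between these samples. In such bulk RNA, fewer cells of a type and less RNA per cell cannot be told apart.

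Autophagy carries cytoplasm and worn organelles into the lysosome. The ULK1 complex starts the process under the control of nutrient kinases, with AMPK as an activator and mTORC1 as an inhibitor. A lipid kinase complex around VPS34 then marks the growing membrane, and WIPI proteins read that mark and bring in the conjugation enzymes. These attach ATG8 proteins (the LC3 and GABARAP families) to the membrane, where receptors such as p62 dock cargo. The lysosome supplies acid through a proton pump and digests the cargo with hydrolases, many of whose genes are driven by the transcription factors TFEB and TFE3. In beta cells the same organelles also degrade surplus insulin granules.

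The depth was 13809266 to 48922569 read pairs on genes per sample, with HFD-O304 replicate 2 the shallowest. One library, HFD-O304 replicate 1, carries the title of its group but a diet tag that reads HFD. It was grouped by its title, and results that move without it are given with that value. Its Wipi1 count of 2070 normalized counts lay among those of the other HFD-O304 samples. Wipi1 was called with this library in that group, so the count does not check the grouping. The tissue label was checked on markers fixed for each cell type. Summed beta cell markers (Ins1, Ins2, Iapp and 6 others) were at least 9391815 normalized counts in every sample. Alpha cell markers summed to 790372 to 1008794 in RD, 302417 to 615857 in HFD and 823719 to 1109533 in HFD-O304 samples. Acinar markers, which belong to the exocrine pancreas, ranged from 741.9 to 318883 over the samples, and 0 of 12 passed the test in any comparison by edgeR or DESeq2, with 1 at an unadjusted p under 0.05 in HFD-O304 vs RD and 0 in the others.

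In RD islets Psap and Lamp1, both lysosomal genes, stood at the top of the set. Levels between genes are compared as TPM, a share of all transcripts that corrects for length, and differences between groups as normalized counts, that is counts divided by a size factor per sample. Psap, whose product is cut into the saposins that help degrade sphingolipids, had 946 TPM, above 99.9% of all genes tested. Lamp1, an abundant glycoprotein of the lysosomal membrane, had 573 TPM. Other lysosomal genes were low, with Npc1 at 6.11 TPM and Mcoln1 at 8.66 TPM. Among the ATG8 genes, Gabarap stood at 336 TPM and Gabarapl1 at 204 TPM, above Gabarapl2 at 45.8 TPM, Map1lc3a at 29.3 TPM and Map1lc3b at 24.3 TPM. By this measure each of the 3 GABARAP genes stood above both LC3 genes. For Gabarapl2 and Map1lc3b the order depends on the lengths used, which are unions of annotated exons (2325 and 7517 bases). Without correction for length, Map1lc3b had the higher mean in RD, 3102 normalized counts against 1809 for Gabarapl2. Sqstm1, which encodes p62, led the receptors with 206 TPM.

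The early machinery was lower than Psap, Lamp1, Gabarap, Sqstm1 and Gabarapl1. Its members ranged from 4.25 TPM for Atg2a, a lipid transfer protein, to 65.2 TPM for Atg13, the ULK1 complex subunit. The conjugation enzymes Atg7, Atg10 and Atg3 and the ubiquitin-like Atg12 ranged from 6.05 to 27.1 TPM. Of the transcription factors, Tfe3 stood at 8.65 TPM and Tfeb at 1.49 TPM, the lowest of the set. The median over the set was 28.5 TPM.

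**Figure D1:**
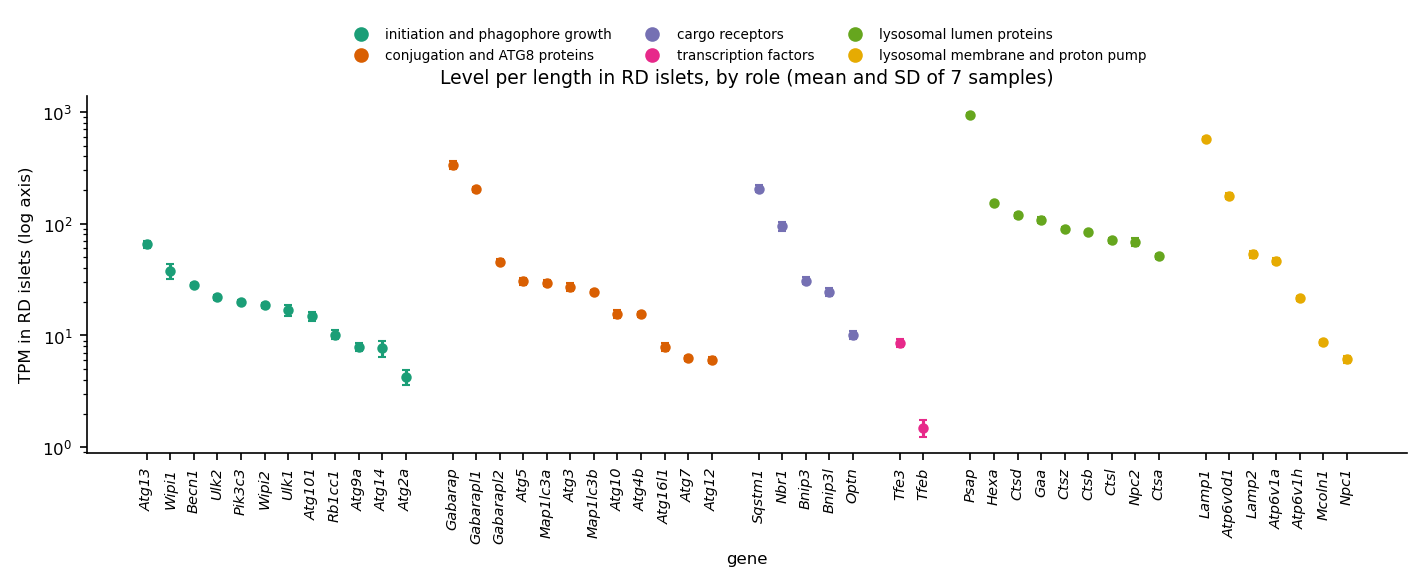
Level per length of the 47 genes in RD islets, as mean TPM with the SD of 7 samples on a log axis, grouped by role and ordered by level. Psap (946 TPM) and Lamp1 (573 TPM) stand highest and Tfeb (1.49 TPM) lowest.

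The first question was which of these genes differed between HFD and HFD-O304 islets. Wipi1 and 3 cathepsin genes, Ctsa, Ctsl and Ctsd, were lower in HFD-O304 islets, and no member was called higher by edgeR. These were 4 of 47 members (8.51%), at a Benjamini-Hochberg adjusted p under 0.01 in edgeR's quasi-likelihood test. DESeq2 called 7, adding Atg12, Atg13 and Ctsb, beside 4045 of the 20365 genes to which it gave an adjusted p. Of all 27229 genes tested, 11.9% were called in this comparison, and 6.79% were called lower in HFD-O304. Among genes whose mean reached 50 normalized counts, as that of every member did, 20.8% were called. The share of the members lay below both 11.9% and 20.8%, a difference that was not tested. The log2 fold changes had a median of -0.02 over the members and of 0.03 over all genes tested.

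In HFD vs RD islets 1 member passed the test, Wipi1, which was higher in HFD (2.13% of the members, beside 3.54% of all genes tested). In HFD-O304 vs RD islets 0 members passed it in edgeR, beside 1.31% of all genes. There, 6 of 47 members had an unadjusted p under 0.05 in that test, beside 3912 of all 27229 genes tested. It was also under 0.05 for 2757 of the 13216 genes whose mean reached 50 normalized counts. DESeq2 called 2 members, Wipi1 and Atg13, beside 727 of the 18782 genes to which it gave an adjusted p. In HFD-O304 vs HFD, edgeR's unadjusted p was under 0.05 for 7989 of all genes tested and for 5950 of those reaching that mean. For HFD vs RD these numbers were 5714 and 4294. Unadjusted counts of single roles and lists below are to be read beside these backgrounds, and the differences from them were not tested. The 3 comparisons share samples, so each is given by its own values.

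For most members the difference was bounded. Of the 43 members not called in HFD-O304 vs HFD, all 43 had a 95% interval of the log2 fold change inside 0.5 on either side of 0, and 29 had it inside 0.25. In HFD vs RD islets, 46 of the 46 members not called lay inside 0.5, and 36 inside 0.25. In HFD-O304 vs RD, 45 of 47 lay inside 0.5 and 37 inside 0.25, and the 2 exceptions were Wipi1, with a lower bound of -0.70, and Tfeb, with an upper bound of 0.69. These intervals are per gene and not adjusted for the number of genes.

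**Figure D2:**
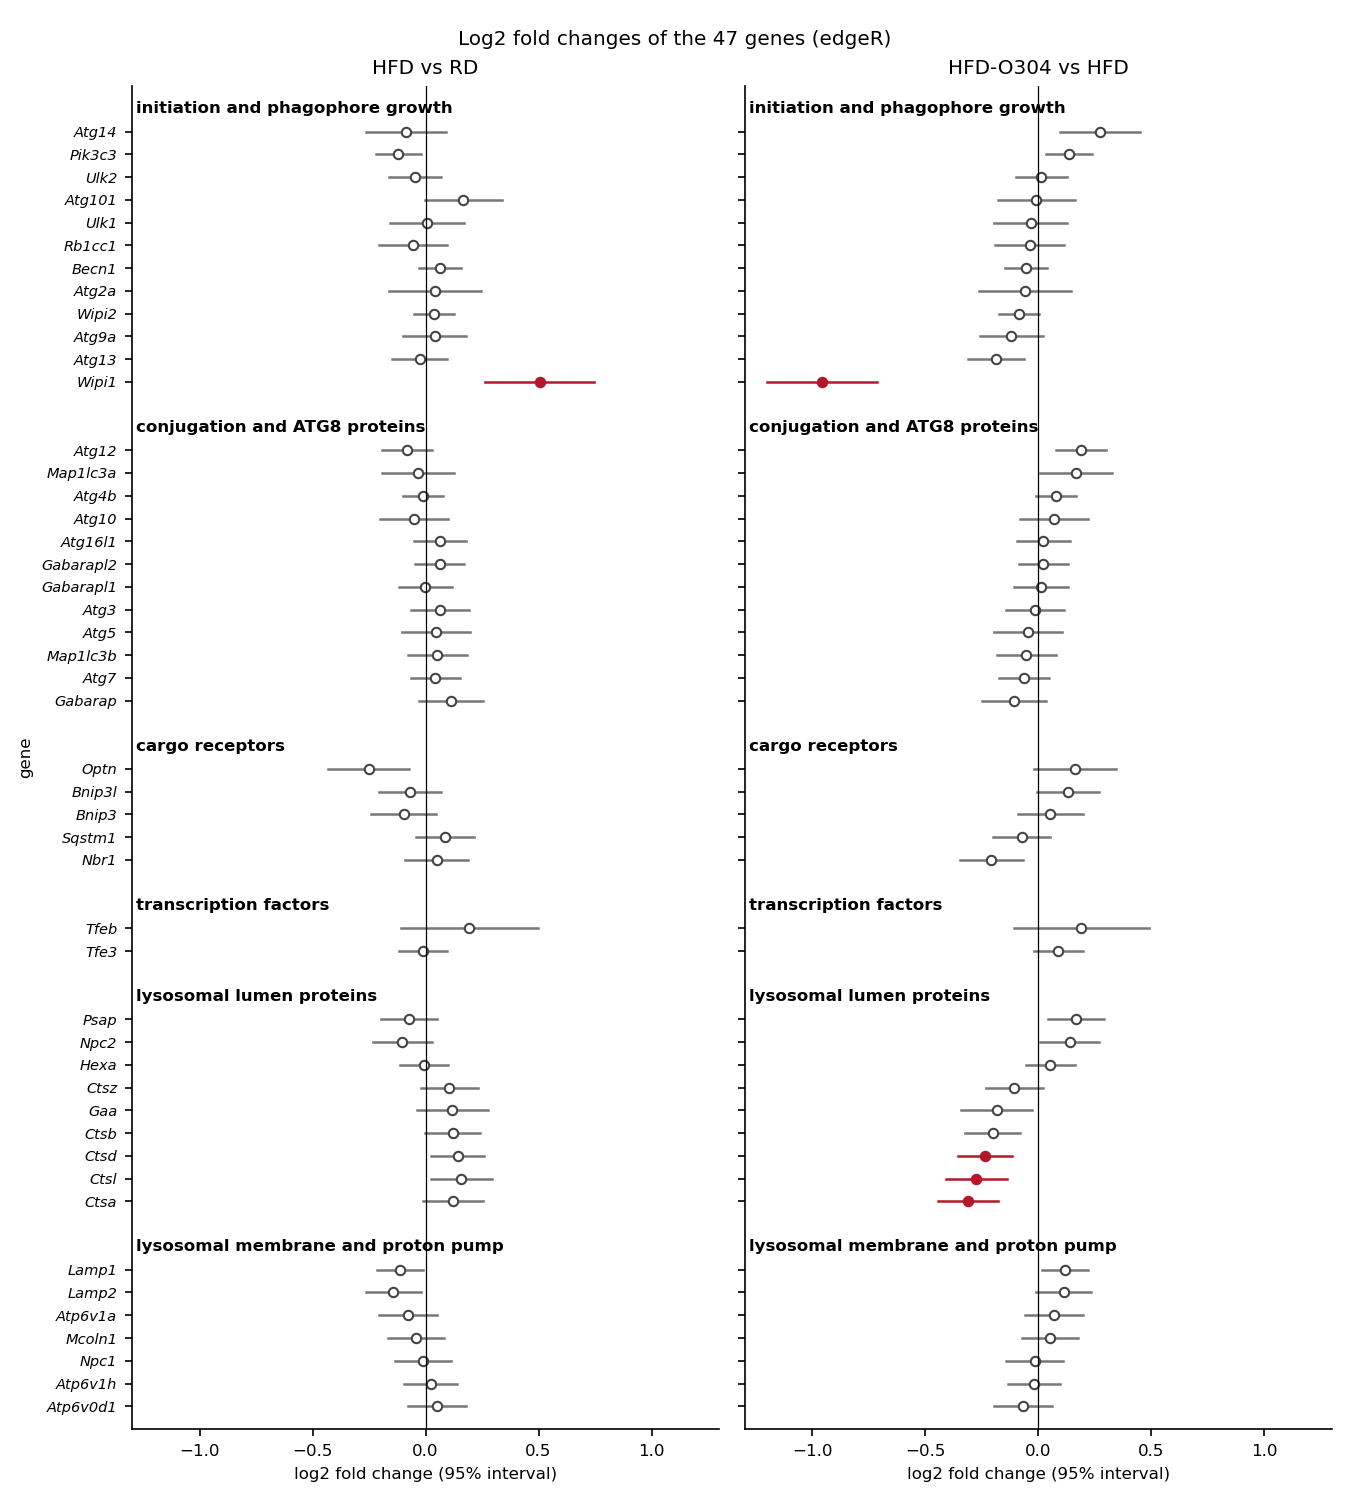
Log2 fold changes (points) with 95% intervals (lines) of the 47 genes by role, in HFD vs RD (left) and HFD-O304 vs HFD islets (right); filled red points passed an adjusted p under 0.01. Wipi1 lies at 0.51 on the left and -0.96 on the right, and the 3 other called genes lie between -0.31 and -0.24.

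Wipi1 encodes a WIPI protein that binds the phosphoinositide on the growing autophagosome membrane. The gene (ENSMUSG00000041895) lies on the minus strand at chr11:109573331-109611967 of GRCm38. Its normalized counts in RD samples 1 to 7 were 2361, 3273, 3509, 3440, 2583, 2388 and 2488. In HFD samples they were 5676, 3706, 3530, 5412, 3831, 3559 and 2866. In HFD-O304 samples they were 2070, 2027, 2079, 2051, 2040, 2236 and 2126. Every HFD-O304 sample lay below every HFD sample and below every RD sample, whereas the HFD and RD samples overlapped. Such separation of all samples was seen for 6.17% of all genes for HFD-O304 vs HFD, 1.56% for HFD-O304 vs RD and 1.35% for HFD vs RD.

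The log2 fold change of Wipi1 was -0.96 (SE 0.118, 95% interval -1.20 to -0.72, edgeR adjusted p = 1.4e-06) in HFD-O304 vs HFD. It was 0.51 (SE 0.118, adjusted p = 0.00746) in HFD vs RD, and -0.45 (SE 0.118, adjusted p = 0.0309) in HFD-O304 vs RD, which missed the threshold. The call in HFD vs RD was lost without any one of RD replicates 1, 5, 6 and 7 or HFD replicates 1, 4 and 5, where the adjusted p ranged from 0.0110 to 0.0273 and the fold change stayed between 0.42 and 0.52. The spread between samples also differed, with a coefficient of variation of 25.6% in HFD, 18.1% in RD and 3.45% in HFD-O304 samples. Wipi2, the paralog that recruits ATG16L1, had the same order of medians at a smaller size, and the difference between the paralogs was not tested. Its medians were 3303, 3416 and 3158 normalized counts in RD, HFD and HFD-O304, and its log2 fold change in HFD-O304 vs HFD was -0.08 (95% interval -0.17 to 0.00, adjusted p = 0.198).

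**Figure D3:**
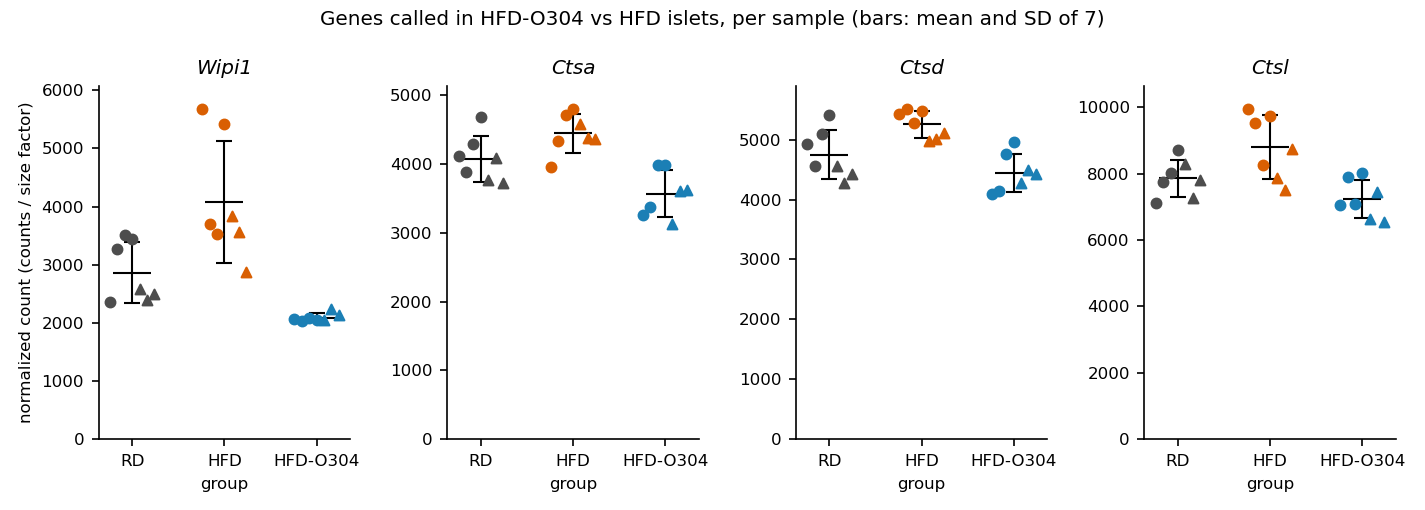
Normalized counts per sample of Wipi1, Ctsa, Ctsd and Ctsl in the 3 groups, with circles for replicates 1 to 4, triangles for replicates 5 to 7, and bars for the mean and SD of 7 samples. For Wipi1 the HFD-O304 samples sit between 2027 and 2236 and the HFD samples between 2866 and 5676.

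Among the other genes of initiation, none passed edgeR's test in any comparison, and DESeq2 called 1, Atg13, in HFD-O304 vs HFD (adjusted p = 0.00687) and in HFD-O304 vs RD (adjusted p = 0.00882). Atg13 had the highest level of them and its counts in HFD-O304 samples (3984 to 4443, median 4042) barely reached the HFD range (4434 to 5120, median 4779). Its log2 fold change in edgeR was -0.19 (adjusted p = 0.0267) against HFD and -0.21 (adjusted p = 0.048) against RD. It was -0.28 and -0.35 in replicates 1 to 4 and -0.09 and -0.04 in replicates 5 to 7. Atg14, the subunit that directs VPS34 to autophagy, had the largest positive value, 0.27 (95% interval 0.10 to 0.45, adjusted p = 0.0254), with 432.1 to 674.5 normalized counts in HFD and 592.3 to 694.9 in HFD-O304. Neither reached the threshold in edgeR. Ulk1, Ulk2, Rb1cc1, Atg101, Becn1, Pik3c3, Wipi2, Atg2a and Atg9a had log2 fold changes between -0.12 and 0.14 in HFD-O304 vs HFD. The exons of Atg9a share 31.8% of their length with another gene on the same strand, and reads falling there were not counted.

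No gene of the conjugation system passed edgeR's test in any of the 3 comparisons, 0 of 12 each time. At an unadjusted p under 0.05 there were 2 for HFD-O304 vs HFD and 0 for the other comparisons, and DESeq2 called 1, Atg12, in HFD-O304 vs HFD. Atg12, the ubiquitin-like protein joined to ATG5, had the largest difference, with medians of 771, 745.7 and 846.3 normalized counts in RD, HFD and HFD-O304 and a log2 fold change of 0.19 (95% interval 0.08 to 0.30, adjusted p = 0.0125) in HFD-O304 vs HFD. Gabarap, the most abundant, had medians of 10580, 10818 and 10355 and a log2 fold change of -0.11 (95% interval -0.25 to 0.03, adjusted p = 0.332). The remaining genes, Atg3, Atg4b, Atg5, Atg7, Atg10, Atg16l1, Map1lc3a, Map1lc3b, Gabarapl1 and Gabarapl2, lay between -0.06 and 0.17. LC3 and GABARAP paralogs were measured only by read pairs that map to a single place.

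The 5 cargo receptors also had 0 calls in each comparison, in edgeR, with 1 at an unadjusted p under 0.05 in each. DESeq2 called 0 of them in each as well. Sqstm1, which links ubiquitinated cargo to LC3, had medians of 12088, 12408 and 11988 normalized counts in RD, HFD and HFD-O304. The HFD samples spanned 11342 to 14490 and the HFD-O304 samples 10826 to 12205, so that the ranges overlapped in part, and the log2 fold change was -0.07 (95% interval -0.20 to 0.05, adjusted p = 0.49) in HFD-O304 vs HFD. Nbr1, a related receptor, had medians of 10805, 11977 and 9946 and a log2 fold change of -0.21 (95% interval -0.35 to -0.07, adjusted p = 0.0306), and edgeR with the library run as a covariate called it (adjusted p = 0.004). The mitophagy receptors Bnip3 and Bnip3l and the ubiquitin receptor Optn lay between 0.05 and 0.16. In HFD vs RD, Optn had the lowest log2 fold change of the set, -0.25 (adjusted p = 0.0776).

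Of the transcription factors, Tfe3 had medians of 1372, 1344 and 1411 normalized counts in RD, HFD and HFD-O304, a log2 fold change of 0.09 (95% interval -0.02 to 0.20) in HFD-O304 vs HFD. Tfeb was low, with 77.9 to 206 normalized counts in HFD and 165 to 230.8 in HFD-O304 samples. Its log2 fold change was 0.19 (95% interval -0.11 to 0.49, adjusted p = 0.434), the widest interval of the uncalled members. Neither passed the test in any comparison by edgeR or DESeq2, and Tfeb in HFD-O304 vs RD, at 0.39 (adjusted p = 0.187), had the only unadjusted p under 0.05. The activity of both proteins is set by phosphorylation and nuclear entry, which RNA counts do not measure.

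The lysosomal lumen proteins held the other 3 calls, 3 of 9, with 7 of 9 at an unadjusted p under 0.05 in HFD-O304 vs HFD, beside 7989 of 27229 genes tested and 5950 of 13216 genes whose mean reached 50 normalized counts. Of these 7, Psap and Npc2 were higher and the other 5 lower. Ctsa encodes cathepsin A, a carboxypeptidase that also protects beta-galactosidase and neuraminidase in a complex. Ctsd encodes the main aspartic protease of the lysosome, and Ctsl a cysteine protease. The promoter windows of these 3 genes are shown: 250 bases before to 50 bases after the RefSeq start site (GRCm38.p6, strand of the gene). Capitals mark CACGTG, the core of the motif bound by TFEB and TFE3, or its longer form TCACGTGA, both of which read the same on either strand. The Wipi1 window is given for comparison.
Ctsa, chr2:164833523-164833822, plus strand: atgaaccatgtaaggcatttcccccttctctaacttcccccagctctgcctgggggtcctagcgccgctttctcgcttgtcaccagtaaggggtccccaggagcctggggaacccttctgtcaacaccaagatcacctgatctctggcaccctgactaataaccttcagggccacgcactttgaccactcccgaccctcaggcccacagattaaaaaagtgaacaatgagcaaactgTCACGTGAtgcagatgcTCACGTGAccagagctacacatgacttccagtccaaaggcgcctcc
Ctsd, chr7:142387778-142388077, minus strand: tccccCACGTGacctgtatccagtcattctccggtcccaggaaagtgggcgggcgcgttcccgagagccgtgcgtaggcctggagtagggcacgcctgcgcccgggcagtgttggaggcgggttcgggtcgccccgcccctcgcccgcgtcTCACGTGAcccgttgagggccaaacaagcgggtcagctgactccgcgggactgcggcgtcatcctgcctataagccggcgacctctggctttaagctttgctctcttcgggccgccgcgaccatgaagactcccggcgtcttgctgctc
Ctsl, chr13:64370471-64370770, minus strand: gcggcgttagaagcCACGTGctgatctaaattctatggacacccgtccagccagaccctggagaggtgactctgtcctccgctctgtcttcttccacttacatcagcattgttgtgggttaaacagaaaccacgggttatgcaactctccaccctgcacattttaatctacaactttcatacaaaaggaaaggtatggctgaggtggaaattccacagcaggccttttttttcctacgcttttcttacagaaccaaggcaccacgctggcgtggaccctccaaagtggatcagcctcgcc
Wipi1, chr11:109611340-109611639, minus strand: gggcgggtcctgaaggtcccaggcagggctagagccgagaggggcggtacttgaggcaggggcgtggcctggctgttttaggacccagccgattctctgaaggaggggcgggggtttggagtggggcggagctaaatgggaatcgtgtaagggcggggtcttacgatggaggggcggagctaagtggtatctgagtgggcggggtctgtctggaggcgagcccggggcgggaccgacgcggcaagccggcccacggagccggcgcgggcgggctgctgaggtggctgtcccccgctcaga
The Ctsa window held TCACGTGA 2 times, close to the start site. The Ctsd window held TCACGTGA 1 time and a further CACGTG, and the Ctsl window held 1 CACGTG. The Wipi1 window and a second Ctsa window held neither string.

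Windows were found for 37 of the 47 members. CACGTG occurred for 13 of these 37 (35.1%), beside 8.09% of the 27025 genes with a window. TCACGTGA, a subset of these matches, occurred for 6 (16.2%), beside 1.12% of genes. The 6 were Ctsa, Ctsd, Atg3 and the lysosomal membrane and pump genes Mcoln1, Atp6v0d1 and Atp6v1a. Of these, 2 were called in HFD-O304 vs HFD and the other 4 were not. Of the 13 members with CACGTG, Ctsa, Ctsd and Ctsl were called in HFD-O304 vs HFD and the others, Gaa and Lamp1 among them, were not. These matches describe the sequence and not the binding of a factor. Whether the motif is linked to the differences between the groups was not tested.

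The Ctsa counts in HFD samples 1 to 7 were 3951, 4334, 4712, 4799, 4585, 4380 and 4365. In HFD-O304 samples they were 3265, 3380, 3990, 3987, 3126, 3610 and 3627, and in RD samples 3724 to 4684 with a median of 4090. The HFD and HFD-O304 samples overlapped only through HFD replicate 1, which lay below 2 HFD-O304 samples. The log2 fold change was -0.31 (SE 0.0653, 95% interval -0.45 to -0.18, adjusted p = 0.000899) in HFD-O304 vs HFD.

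The Ctsd counts in HFD samples were 5427, 5510, 5279, 5485, 4979, 5014 and 5114. In HFD-O304 samples they were 4088, 4141, 4759, 4954, 4276, 4492 and 4427, all below the HFD samples, and in RD samples 4270 to 5412 with a median of 4568. The log2 fold change was -0.24 (SE 0.058, 95% interval -0.35 to -0.12, adjusted p = 0.00417). The call was lost without HFD replicate 2 (adjusted p = 0.0120), HFD-O304 replicate 1 (adjusted p = 0.0106) or HFD-O304 replicate 2 (adjusted p = 0.0110), with log2 fold changes of -0.22, -0.22 and -0.21. The exons of Ctsd share 34.4% of their length with another gene on the same strand, where reads were not counted.

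The Ctsl counts in HFD samples were 9945, 9524, 8267, 9731, 7865, 7519 and 8742. In HFD-O304 samples they were 7049, 7913, 7099, 8017, 6641, 7452 and 6554, and in RD samples 7129 to 8707 with a median of 7805. The exons of Ctsl share 6.09% of their length with another gene on the same strand. The groups overlapped, with HFD replicates 5 and 6 inside the HFD-O304 range. The log2 fold change was -0.27 (SE 0.0654, 95% interval -0.41 to -0.14, adjusted p = 0.00311). The call was lost without HFD replicate 1, 2 or 4, at adjusted p of 0.0110, 0.0116 and 0.0103 and log2 fold changes of -0.24, -0.25 and -0.25.

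The other lumen proteins did not pass edgeR's test. Ctsb, a cysteine protease, had medians of 8667, 9608 and 8046 normalized counts in RD, HFD and HFD-O304 and a log2 fold change of -0.20 (95% interval -0.32 to -0.08, adjusted p = 0.0164) in HFD-O304 vs HFD. DESeq2 called it (adjusted p = 0.00412), as did edgeR with filterByExpr in place of the row sum minimum (adjusted p = 0.00884) and with the set of library numbers as a covariate (adjusted p = 0.00611). Psap, the most abundant gene of the set, ran the other way, with medians of 43838, 41915 and 47237 and a log2 fold change of 0.17 (95% interval 0.04 to 0.29, adjusted p = 0.0502). Ctsz, Gaa, Hexa and Npc2 lay between -0.18 and 0.14. By group means, 6 of the 9 were highest in HFD and lowest in HFD-O304, and the other 3 (Psap, Npc2 and Hexa) were highest in HFD-O304 and lowest in HFD. In HFD vs RD no lumen member was called in edgeR or DESeq2, with 2 of 9, Ctsd and Ctsl, at an unadjusted p under 0.05.

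The membrane and pump genes had 0 of 7 calls in each comparison by edgeR and by DESeq2, and all 7 had intervals inside 0.25 in HFD-O304 vs HFD. At an unadjusted p under 0.05 there were 2 in HFD vs RD, 1 in HFD-O304 vs HFD and 0 in HFD-O304 vs RD. Lamp1 had both the highest level and the largest log2 fold change, 0.12 (95% interval 0.01 to 0.22, adjusted p = 0.109), with medians of 25938, 23800 and 25870 normalized counts in RD, HFD and HFD-O304. Lamp2, a receptor of chaperone-mediated autophagy, the cholesterol exporter Npc1, the calcium channel Mcoln1 and the pump subunits Atp6v1a, Atp6v1h and Atp6v0d1 lay between -0.07 and 0.11.

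Values of other cells moved with these calls. In HFD-O304 vs HFD all 6 alpha cell markers were called, 5 higher and 1 lower, and their summed level did not overlap between the 2 groups. With the mean log2 level of these markers as a covariate, 0 members were called in either comparison with HFD samples, Wipi1 stood at -0.46 (edgeR adjusted p = 0.719) against HFD and, for HFD against RD, at 0.14 (adjusted p = 1). Ctsa, Ctsd and Ctsl stood at -0.08, -0.02 and -0.14 in HFD-O304 vs HFD. In that fit calls over all genes dropped from 3230 to 23 in HFD-O304 vs HFD and from 963 to 0 in HFD vs RD, so the markers and the groups cannot be told apart. Fibroblast and pericyte markers were lower in HFD-O304, 4 of 7 called, with sums of 6028 to 10530 against 10842 to 19421 normalized counts in HFD. Wipi1 was the only member called with them as a covariate. In that fit calls over all genes dropped from 3230 to 1279 in HFD-O304 vs HFD. These sums did not overlap between the 2 groups, so summed marker level and group went together in these samples. The covariate was the mean log2 level of the markers, whose overlap between the groups is not given here. How far the markers and the groups can be told apart in this fit was not tested.

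Beta cell markers summed to 11792380 to 13779325 in HFD and 9391815 to 11137068 in HFD-O304 samples, without overlap, with 5 of 9 markers called, 3 lower and 2 higher. With them as a covariate Wipi1 and Ctsa were called, and calls over all genes dropped from 3230 to 2438. Here too, how far the markers and the groups can be told apart was not tested. Macrophages are rich in cathepsins. Their markers overlapped between the groups (2592 to 3873 in HFD, 3088 to 3900 in HFD-O304), and 1 of 14 was called. In HFD-O304 vs HFD all 4 calls remained with them as a covariate, with Ctsb added. In HFD vs RD the call of Wipi1 was lost with this covariate, at 0.53 (edgeR adjusted p = 0.0112). Calls over all genes in HFD vs RD dropped from 963 to 587. Of the remaining marker lists, 3 of 3 delta cell and 4 of 7 duct cell markers were higher in HFD-O304 than in HFD, and 3 of 8 endothelial markers were lower. None of these markers was at 0 in all samples of a group.

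The library numbers in the labels fall into 2 runs, which hold replicates 1 to 4 and replicates 5 to 7 of every group. All 4 genes were lower in HFD-O304 than in HFD within each run of numbers. Wipi1 was at -1.16 (adjusted p = 3.04e-05) in the first and -0.67 (adjusted p = 0.000121) in the second. Ctsa was at -0.29 and -0.36, Ctsd at -0.28 and -0.19, and Ctsl at -0.33 and -0.22, and of these 3 Ctsa passed the test in the second run (adjusted p = 0.00347) while the others did not pass in either. Wipi1 in HFD vs RD was at 0.54 (adjusted p = 0.0366) and 0.46 (adjusted p = 0.00842). A test of whether group differences differed between the runs called 0 of 47 members and 0 of all genes (edgeR). At an unadjusted p under 0.05 it had 5 members, Atg13, Wipi1, Sqstm1, Psap and Lamp2, and 5.71% of all genes.

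Beyond the 47, 6 lists of other genes of the pathway were counted in the same fit. These lists too were chosen with earlier results of these data known. Their shares describe the lists and are no independent check of the members. The largest share was in other lysosomal lumen proteins, with 17 of 39 called in HFD-O304 vs HFD (43.6%, beside 11.9% of all genes and 20.8% of genes whose mean reached 50 counts). Of these, 15 were lower and 2 higher. The median over all 39 was -0.16 on the log2 scale. The lowest adjusted p belonged to 4 hydrolases. Glb1, beta-galactosidase, had 932.6 to 1225 normalized counts in HFD and 618.5 to 762 in HFD-O304 samples and a log2 fold change of -0.62 (SE 0.0651, adjusted p = 1.3e-07). Aga, which cleaves asparagine-linked sugars, was at -0.67 (adjusted p = 6.64e-06), Gla, alpha-galactosidase A, at -0.66 (adjusted p = 1.44e-05) and Naglu, which degrades heparan sulfate, at -0.44 (adjusted p = 3.34e-05).

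The 2 that were higher were named after their values were seen: Manba, beta-mannosidase, at 0.40 (adjusted p = 7.27e-05) and Ctso, cathepsin O, at 0.36 (adjusted p = 0.000259). In HFD vs RD 7 of these 39 were higher and 2 lower (23.1%, beside 3.54% of all genes and 6.22% of genes whose mean reached 50 counts). Among them were Glb1 at 0.36 (adjusted p = 0.000723), Aga at 0.44 (adjusted p = 0.00299), Naglu at 0.31 (adjusted p = 0.00473) and Manba at -0.29 (adjusted p = 0.00638). In HFD-O304 vs RD 0 of 39 were called in edgeR, with 12 at an unadjusted p under 0.05, and DESeq2 called 2, Asah1 and Glb1. Within the runs of library numbers 11 and 8 of the list were called in HFD-O304 vs HFD, and 7 with the fibroblast and pericyte markers and 0 with the alpha cell markers as a covariate.

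**Figure D4:**
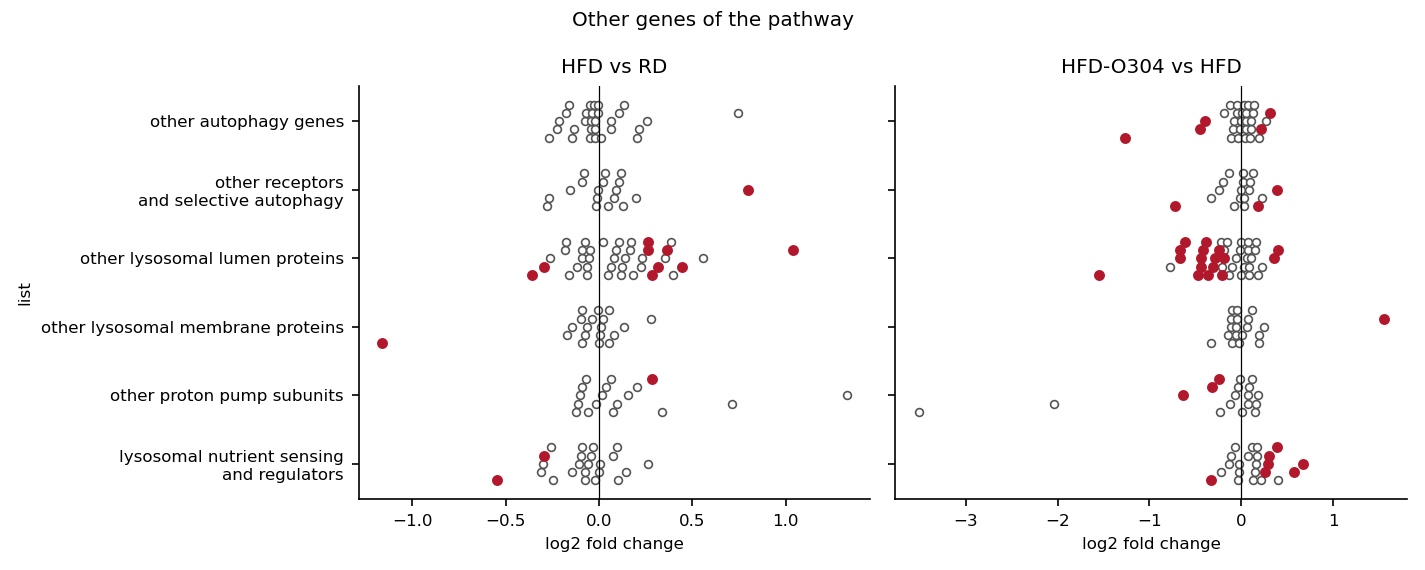
Log2 fold changes of genes in 6 further lists of the pathway, in HFD vs RD (left) and HFD-O304 vs HFD islets (right, on a wider axis); each point is a gene and filled red points passed an adjusted p under 0.01. Of 39 other lumen proteins 15 lie lower and 2 higher among the filled points on the right.

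Genes of nutrient sensing at the lysosome, where mTORC1 is switched on by amino acids, were called in 7 of 23 cases (30.4%) in HFD-O304 vs HFD, 6 higher and 1 lower. The background was 11.9% of all genes and 20.8% of genes whose mean reached 50 counts. Rragb, a Rag GTPase that recruits mTORC1, had 1002 to 1358 normalized counts in HFD and 1477 to 1928 in HFD-O304 samples, without overlap, and a log2 fold change of 0.57 (SE 0.069, adjusted p = 8.94e-07). Fnip2, the folliculin partner that binds AMPK, was at 0.67 (adjusted p = 9.71e-05), Rragc at 0.30 (adjusted p = 0.000533) and Tsc1, an inhibitor of mTORC1 signalling, at 0.26 (adjusted p = 0.0017). Fnip2 and Tsc1 were also the 2 genes called in HFD vs RD, both lower in HFD, at -0.55 and -0.29. That was 8.7% of the list, beside 3.54% of all genes and 6.22% of genes whose mean reached 50 counts. Rragb was the only one called in HFD-O304 vs RD (4.35% of the list, beside 1.31% of all genes), at 0.32 (adjusted p = 0.00763).

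Other autophagy genes had 5 of 29 calls in HFD-O304 vs HFD (17.2%), 3 lower and 2 higher, a share between the 11.9% of all genes and the 20.8% of genes whose mean reached 50 counts. DESeq2 called 6. Atg9b, the paralog of the lipid scramblase Atg9a, fell from a mean of 46.8 to 19.3 normalized counts, a log2 fold change of -1.27 (adjusted p = 2.1e-05). Vmp1 was at -0.44 (adjusted p = 0.00281), the LC3 protease Atg4a at -0.40 (adjusted p = 0.00396) and Vps11, a tethering subunit for fusion with the lysosome, at 0.31 (adjusted p = 0.00427). Other receptors had 3 of 18 calls (16.7%, between the same backgrounds, and 3 by DESeq2), Stbd1, a glycogen-binding receptor, at -0.72, Tollip at 0.19 and Calcoco1 at 0.39.

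Among other membrane proteins 1 of 19 was called by edgeR (5.26%, below both backgrounds) and 3 by DESeq2 (Clcn7, Laptm4b and Mcoln3). The edgeR call was the channel Mcoln3 at 1.55 (adjusted p = 1.41e-05), with 35.4 to 153 normalized counts in HFD and 159.9 to 276.2 in HFD-O304 samples. Of other proton pump subunits 3 of 18 were called by edgeR (16.7%, between both backgrounds) and 5 by DESeq2. The 3 were lower: Atp6v1g2 at -0.63, Atp6v0e2 at -0.32 and Atp6ap1 at -0.25. In these lists HFD vs RD had 0 of 29, 1 of 18, 1 of 19 and 1 of 18 calls in the same order (DESeq2 called 3 of the 29). A single call was 5.26% or 5.56% of its list, between the 3.54% of all genes and the 6.22% of genes whose mean reached 50 counts. HFD-O304 vs RD had 0 in each by edgeR and by DESeq2, with 2, 0, 3 and 1 genes at an unadjusted p under 0.05.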

How the data were processed

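RNA of 21 islet samples was sequenced with paired-end reads, and the authors aligned them to GRCm38 with STAR, using Ensembl 96 annotation as their methods state. The deposited values are STAR's read pair counts per gene, without normalization, which leave out pairs with more than 1 place or gene. The count of the strand holding 28.8 to 36.3 times the other was used, 13809266 to 48922569 read pairs on genes per sample. Depth limits the precision of low genes such as Tfeb.

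Genes with a row sum of at least 10 were tested in edgeR 4.0.16 (TMM, quasi-likelihood fit of all 3 groups, Benjamini-Hochberg adjusted p under 0.01) with R 4.3.3. Normalized counts are counts divided by the size factors of DESeq2 1.42.0, and TPM used the union of exons in GENCODE M21. Intervals are 95% Wald intervals from the fit. The members and lists were chosen with earlier results of these data known. Of 215 list symbols, 2 matched no gene. Named are all members, those called with their values, in each role the uncalled member of highest level and that of largest difference in HFD-O304 vs HFD, and up to 4 called genes per pathway list. On simulated counts of HFD-O304 vs HFD over 27229 genes, 66 of 100 genes changed by 0.5 on the log2 scale and 95 of 100 changed by 1 were recovered, with 1 false call. No 2 samples of a group agreed within counting noise. Alternatives covered the test, normalization, filter, strand, samples, block, library set, marker covariates, threshold and each sample left out. ChIP-seq was not analysed here.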

Additional observations from a re-analysis of the deposited data

How the results depend on the processing

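Counts of members called in HFD-O304 vs HFD stayed within 1.5 times the 4 reported under other scalings, filters, unstranded counts, 2 groups only and acinar or macrophage marker covariates. They were 7 with DESeq2, 7 with library set as a covariate (beside 3795 of all genes) and 9 at an adjusted p under 0.05. They were 1 in replicates 1 to 4, 2 in replicates 5 to 7, and 3 to 5 with a sample left out. In HFD vs RD the count was 0 with the macrophage covariate, in 2 groups only and in replicates 1 to 4, and 0 to 1 with a sample left out. In HFD-O304 vs RD it was 2 with DESeq2, 1 in 2 groups only, 2 at an adjusted p under 0.05, and 0 with any sample left out. Other lumen proteins called in HFD-O304 vs HFD (17) numbered 11 in replicates 1 to 4, 8 in replicates 5 to 7, and 14 to 19 with a sample left out.

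Covariates of beta, fibroblast and pericyte, and alpha markers were added after seeing the data. They left 2, 1 and 0 members in HFD-O304 vs HFD, beside 2438, 1279 and 23 of all genes. In HFD vs RD they left 0 members each, beside 335, 165 and 0 of all genes. In HFD-O304 vs RD the beta covariate left 1. Other lumen proteins numbered 7 with the fibroblast and 0 with the alpha covariate. With the alpha covariate 3 uncalled genes reversed in HFD-O304 vs HFD: Atg13 (0.12), Ctsb (0.0044) and Nbr1 (0.045). No called member reversed under any of 37 alternatives, which were not run per gene for the further lists; the cause of these changes was not tested. Over all genes DESeq2 called 1758 for HFD vs RD, 727 for HFD-O304 vs RD and 4045 for HFD-O304 vs HFD, against 963, 356 and 3230.

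The replicate numbers were not taken as pairs in the main fit, as the study's methods state no covariate. The data do not settle that choice. Same-numbered samples' deviations correlated above 0.1 in 15 of 21 pairs (-0.54 to 0.69), and 10 of 21 samples correlated best with their own number. With the replicate number as a block, 7 members were called in HFD-O304 vs HFD (Atg12, Ctsb and Nbr1 besides the 4), 1 for HFD vs RD and 0 for HFD-O304 vs RD. Over all genes that fit called 3763, 1577 and 543, against 3230, 963 and 356 without the block. Atg12, Ctsb and Nbr1 were not called in the main fit. They were also called with library set as the covariate in place of the block, and Atg12 and Ctsb by DESeq2 and with filterByExpr. Their calls thus depend on this choice and on others. The 7 samples per group limit small differences on the log2 scale.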
